A study of Mus musculus with 12 samples.

Results

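Intact Vnn1 was compared with its catalytically deficient form in grafted sarcomas, over all genes of an expression array. The comparison used 8 of the 12 tumors of the series, the 4 labelled VR and the 4 labelled VdR, each group with tumors 1, 2, 4 and 5, chosen by their titles alone. The other 4 tumors, R, carry no Vnn1 and did not enter the contrast. They entered the estimate of the spread, the filter on low values and the choice of probeset per gene. Their levels are given side by side as a description. All tumors grew from J2A, one myofibroblast line of the aorta of C57BL/6 mice lacking p16, p19 and Vnn1. J2A cells of every group received a retroviral vector in which the CMV promoter drives the insert and GFP/H-RasV12 follows behind an IRES. The insert was a mock in R, intact mouse Vnn1 in VR and catalytically deficient Vnn1 (Vnn1dCr) in VdR. The cells were grafted under the skin of nude mice on a normal diet, and tumors were collected after 2 to 3 weeks of growth per the labels. Nude mice lack thymus-derived T cells but keep natural killer cells and myeloid cells. Within a group, tumors are separate grafts of what, as far as is stated, was 1 transduced population, so a difference between the VR and VdR cell populations that arose at transduction cannot be told apart from one that follows enzyme activity. P-values therefore measure only the spread between tumors. Whether whole tumor tissue or sorted cells gave the RNA is described differently in the labels and in the methods, and in either case fewer cells of a type and less RNA per cell cannot be told apart.

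Vnn1 encodes pantetheinase, an enzyme anchored at the cell surface that splits pantetheine into pantothenate (vitamin B5) and cysteamine. Pantothenate is the precursor of coenzyme A, the acyl carrier of fatty acid oxidation and of the tricarboxylic acid cycle, and cysteamine is a small aminothiol that acts on the redox state of cells. A protein without catalytic activity separates the effects of these products from those of carrying a Vnn1 transcript and protein.

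Vnn1 checked the labels. Its log2 expression was 11.37, 11.49, 11.66 and 11.73 in VdR1, VdR2, VdR4 and VdR5 and 11.26, 10.54, 11.06 and 10.64 in VR1, VR2, VR4 and VR5, against 5.70 ± 0.13 (SD, n = 4) in the R tumors. Both groups carried the transcript at a level far above R, and every VR tumor lay below every VdR tumor. The difference, VR minus VdR, was -0.69 on the log2 scale, or 1.61-fold (two-sided exact permutation test over 70 arrangements, p = 0.0286, the smallest p that 4 tumors against 4 allow). In the fit over all genes described next, its adjusted p was 0.0292, a call that was lost without VR2, VR4, VR5, VdR4 or VdR5 (highest adjusted p 0.0781, limma). The 2 forms were thus not carried at the same transcript level, and the arrays do not separate intact from mutated transcript. Vnn3, a vanin paralog beside Vnn1, stayed near the lowest values of the arrays, at 5.42 ± 0.07 in VdR and 5.33 ± 0.06 in VR (SD, n = 4; adjusted p = 0.37, limma).

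Of 16573 genes tested, 293 were higher (1.77%) and 277 were lower (1.67%) in VR than in VdR, 570 in all or 3.44% (limma, Benjamini-Hochberg adjusted p under 0.05). With each array centred on its median the split was 254 higher and 365 lower, and with cyclic loess 426 higher and 304 lower. Most differences were small. The called genes changed at least 1.5-fold numbered 125, with 82 higher and 43 lower, and those changed at least 2-fold numbered 25 and 17. Over all tested genes, 12.6% had VR and VdR values that did not overlap, and 557 of the 570 called genes were among them. For scale, VR differed from R in 21.1% of genes and VdR from R in 9.38%, 2 comparisons that share tumors with this one. The number of called genes depended on single tumors. It fell to 86 without VR4, 151 without VR2, 171 without VdR4, 205 without VdR5, 260 without VR5 and 298 without VdR1, while it was 554 without VR1 and 433 without VdR2. It was 380 without R1, which touches only the spread. Of 117 called genes named here, 32 kept their call whichever VR or VdR tumor was left out, 18 lost it in 1 to 3 of the 8 cases and 67 in 4 or more, and none changed sign. Without VR4, 33 of the 117 were called, these 32 and Aldh1a2, so each call that is not described as kept below, Aldh1a2 excepted, was lost without VR4 (limma).

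**Figure D1:**
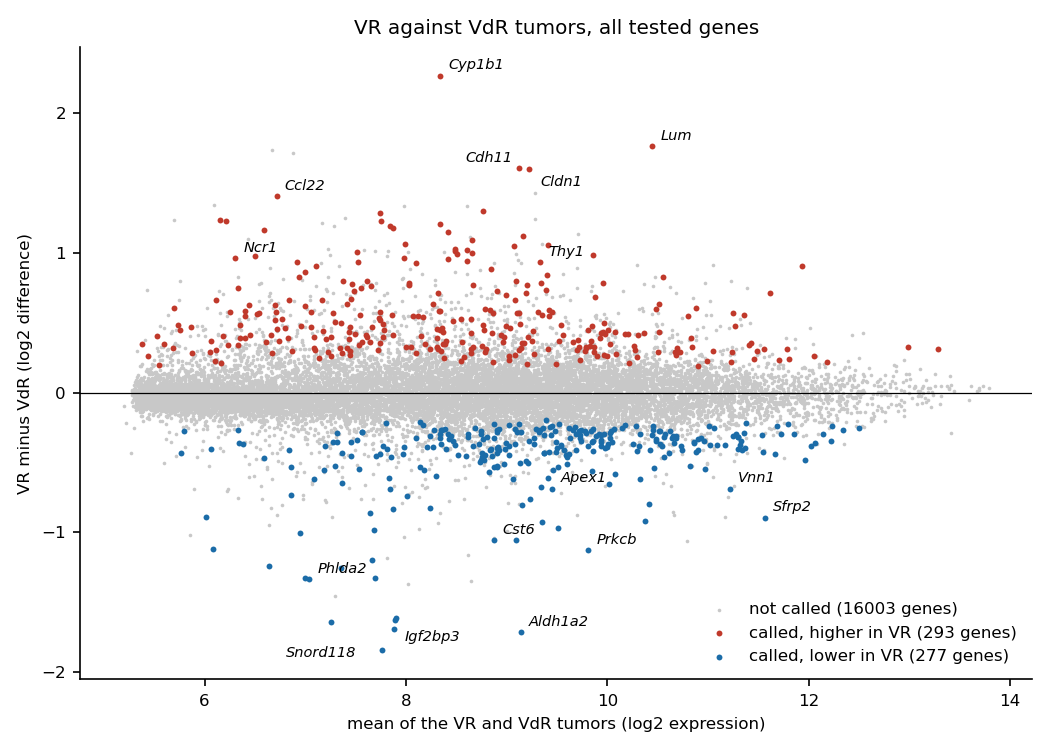
Difference VR minus VdR (log2) on the vertical axis against the mean log2 expression of the 8 tumors on the horizontal axis, 1 point per tested gene. Red points are the 293 genes called higher in VR, blue points the 277 called lower and grey points the rest; Cyp1b1 lies highest at 2.27 and Snord118 lowest at -1.84 among called genes.

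The 8 arrays were close to each other, with correlations across genes of 0.989 to 0.993 within VdR, 0.988 to 0.994 within VR and 0.982 to 0.993 between the groups (Pearson; genes are not independent replicates). The first principal component held 35.8% of the variance and placed the VdR tumors from -19.9 to -7.71 and the VR tumors from 5.64 to 21.5, with VdR4 and VR2 at its ends. These 2 tumors also stood apart in gene groups. VdR4 had the highest levels of hypoxia genes among the 8 tumors, and VR2 those of interferon genes. Without both of them 32 genes were called, of which 29 were among the 570.

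The largest rise was in Cyp1b1, a cytochrome P450 that oxidises estrogens and polycyclic aromatic hydrocarbons and is induced through the aryl hydrocarbon receptor. Its log2 expression was 7.23, 7.55, 7.42 and 6.61 in VdR1, VdR2, VdR4 and VdR5 and 8.83, 9.76, 9.74 and 9.55 in VR1, VR2, VR4 and VR5. The groups were separated by more than 1 log2 unit, and R tumors, at 7.39 ± 0.91 (SD, n = 4), lay with VdR although R2 reached 8.63. Cyp1b1 was 4.82-fold higher in VR (log2 difference 2.27 ± 0.38 SE, adjusted p = 0.0155, limma), and the call was lost without VR4 (adjusted p = 0.0541). The largest fall in a protein-coding gene was in Aldh1a2, the retinaldehyde dehydrogenase that makes retinoic acid in mesenchymal cells. It stood at 9.70, 10.05, 9.98 and 10.25 in VdR and at 7.69, 8.13, 8.70 and 8.60 in VR, in the order of tumors 1, 2, 4 and 5, with R at 8.76 ± 0.75 (SD, n = 4). Here the R tumors lay closer to VR. The log2 difference was -1.72 ± 0.32 SE (adjusted p = 0.0192, limma), not called without VR2, VdR4 or VdR5 (highest adjusted p 0.0554).

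The 250 bases before the start of these 2 genes are shown because the genes are the largest coding changes in each direction. The sequences are from RefSeq on GRCm38.p6, written 5′ to 3′ on the strand of the gene, with capitals for the motifs found. Cyp1b1 lies on the minus strand at chr17:79715062-79715311 and Aldh1a2 on the plus strand at chr9:71215539-71215788.
Cyp1b1: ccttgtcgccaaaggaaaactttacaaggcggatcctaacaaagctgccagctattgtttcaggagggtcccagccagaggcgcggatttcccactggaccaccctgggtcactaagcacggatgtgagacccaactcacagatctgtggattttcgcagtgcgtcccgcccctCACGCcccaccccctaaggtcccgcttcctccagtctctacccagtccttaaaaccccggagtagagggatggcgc
Aldh1a2: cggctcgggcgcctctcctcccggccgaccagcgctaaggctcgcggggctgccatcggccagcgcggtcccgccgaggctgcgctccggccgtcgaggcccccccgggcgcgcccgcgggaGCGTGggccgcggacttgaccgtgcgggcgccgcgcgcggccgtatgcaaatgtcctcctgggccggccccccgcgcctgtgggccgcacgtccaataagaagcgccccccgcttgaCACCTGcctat
GCGTG, the core letters of the aryl hydrocarbon receptor element, was searched on both strands and occurs once in each window, on the opposite strand (CACGC) in Cyp1b1. It occurs in 28.2% of the 27025 promoters of the same length. The letters CAGGTG, an E-box read by Snai2 and Zeb1, occur once in Aldh1a2 on the opposite strand (CACCTG) and not in Cyp1b1, and in 17.1% of promoters. The match is a description of these letters and not a site.

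Other genes of the 2 pathways are set beside them. Among 9 genes of the aryl hydrocarbon receptor and xenobiotic response, 1 was called, Cyp1b1 itself, and the median difference was -0.03. Nqo1, a quinone reductase induced by the same receptor and by NRF2, had 8.17 ± 0.08 in VdR and 7.68 ± 0.16 in VR (SD, n = 4; adjusted p = 0.15, limma). Among 19 genes of retinoic acid synthesis and response, 1 was called, Aldh1a2, with a median of -0.08. Rarb, a retinoic acid receptor and target, differed by -0.53 (95% interval -1.09 to 0.03) and Stra6, the retinol transporter, by -0.60 (95% interval -1.30 to 0.11), neither of them called.

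Genes of the extracellular matrix, which J2A cells and host fibroblasts make, included several of the larger rises. Of 36 proteoglycans and other matrix proteins, 6 were higher and 0 were lower (16.7% called, beside 3.44% over all genes). The median difference was 0.23, beside -0.02 over all genes tested. The mean log2 expression of this list was 10.00 to 10.23 in VdR and 10.31 to 10.63 in VR, ranges that did not overlap. Non-overlap also held for 12.6% of single genes. The mean levels of the retinoic acid and xenobiotic lists, with 1 called gene each, did not overlap either. Lum encodes lumican, a small leucine-rich proteoglycan that binds collagen fibrils. Its values were 9.30, 10.25, 9.57 and 9.12 in VdR and 10.66, 11.67, 11.77 and 11.20 in VR, in the order of tumors 1, 2, 4 and 5, and R tumors were lower, at 8.33 to 9.12. Lum was 3.40-fold higher (log2 difference 1.77 ± 0.28 SE, adjusted p = 0.0122, limma) and kept its call whichever tumor was left out. Fbln5, an elastic fibre protein, rose by 0.72 (adjusted p = 0.0183), Thbs2, a matricellular thrombospondin, by 0.71 (0.0195), Bgn, biglycan, by 0.32 (0.031), Dcn, decorin, by 0.32 (0.0371) and Cilp, a cartilage matrix protein, by 1.12 (0.0345, all limma). The R level of Thbs2, 12.16 ± 0.19 (SD, n = 4), lay above VdR at 11.26 ± 0.07 and near VR at 11.97 ± 0.31, and the R mean of Bgn, 13.28, lay between VdR at 13.12 and VR at 13.44. Ogn, osteoglycin, with 1.24 (adjusted p = 0.0847) and Dpt, dermatopontin, with 0.91 (0.0935) did not pass. Each of the calls other than that of Lum was lost when either VR2 or VR4 was left out, and the differences kept their sign.

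Of 37 collagen genes, 2 were higher and 0 lower (5.41% called, beside 3.44% over all genes), with a median of 0.17. Both belong to the microfibrillar collagen VI, namely Col6a2 (0.57 ± 0.12 SE, adjusted p = 0.0312) and Col6a3 (0.30 ± 0.07 SE, adjusted p = 0.0312, limma). Col1a1, a chain of the main fibrillar collagen, had 12.83 ± 0.18 in VdR and 13.07 ± 0.09 in VR (SD, n = 4; adjusted p = 0.264), and Acta2, smooth muscle actin, 11.96 ± 0.09 and 12.11 ± 0.17 (adjusted p = 0.717, limma). Neither passed. Of 28 matrix proteases and crosslinking genes, 0 were higher and 1 was lower. This was Plaur, the urokinase receptor, at 9.78, 9.70, 9.90 and 9.86 in VdR and 9.24, 9.41, 9.35 and 9.47 in VR. It was -0.45 (adjusted p = 0.0125, limma), a call kept without any 1 tumor. Ctsk, the collagen-degrading cathepsin K, was counted with 24 lysosomal genes, of which it and Ctso rose (8.33% called, beside 3.44% over all genes). It stood at 7.27, 8.26, 7.96 and 7.88 in VdR and 8.33, 9.23, 9.22 and 9.19 in VR (log2 difference 1.15, adjusted p = 0.0198, limma), with VR1 just above the highest VdR tumor, and was not called without VR2, VR4 or VR5 (highest adjusted p 0.0665). Col6a2 and Col6a3 were not called without VR2, VR4, VR5, VdR4 or VdR5, among others. Further matrix-related genes among the 20 largest rises were the integrin subunit gene Itga8 (1.21), the secreted proteins Fibin (1.07), Srpx2 (1.05) and Srpx (1.03) and the carboxypeptidase-like Cpxm1 (1.06), none of which was called without VR4. P4ha3, a collagen prolyl hydroxylase, rose by 0.95 (adjusted p = 0.0392, limma). It was named after its values were seen and lost its call in 7 of the 8 cases.

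Some adhesion and mesenchymal identity genes rose as well. Of 26 cadherins, junction proteins and transition factors, 5 were higher and 0 lower (19.2% called, beside 3.44% over all genes). Their median was 0.14, with mean levels of 9.20 to 9.29 in VdR and 9.40 to 9.48 in VR. Cdh11, the cadherin of mesenchymal cells, had 8.31, 8.80, 8.50 and 7.68 in VdR and 10.41, 9.64, 9.63 and 10.03 in VR. Its R tumors, at 9.23 to 9.60, lay just below VR, so VdR was the group that stood apart (VdR minus R -1.10, adjusted p = 0.00889; VR minus R 0.50, adjusted p = 0.133). VR exceeded VdR by 1.61 ± 0.23 SE (3.04-fold, adjusted p = 0.00792, limma) with or without any 1 tumor. Cldn1, a tight junction claudin, behaved otherwise. It stood at 8.81, 8.88, 7.85 and 8.17 in VdR, at 9.90, 10.27, 10.06 and 9.88 in VR and at 5.97 to 7.47 in R, 3.03-fold higher than in VdR (adjusted p = 0.0181, limma; lost without VR2 or VR4, highest adjusted p 0.0593). Snai2, a zinc finger repressor of epithelial genes, was higher by 0.80 (adjusted p = 0.0198), Zeb1, a second one, by 0.27 (0.0201) and Prrx1, a mesenchymal homeobox factor, by 0.31 (0.041, all limma). All 4 VR tumors lay between 9.34 and 9.61 for Snai2, above the highest VdR tumor at 8.90, and VdR4 was lowest at 8.17. These 3 calls were lost without either VR2 or VR4. Cdh2, neural cadherin, differed by 0.25 (adjusted p = 0.242).

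Thy1, a surface glycoprotein of fibroblasts and T cells, had 8.96, 9.13, 8.90 and 8.44 in VdR and 9.73, 9.85, 9.77 and 9.83 in VR. The VR tumors lay within a narrow range above all others, and the difference of 0.93 (adjusted p = 0.00792, limma) was called without any 1 tumor. Of 9 T cell genes Thy1 was the only one called, and the median of that list was 0.01. Of 12 fibroblast genes, 2 rose, Thy1 and Dcn (16.7% called, beside 3.44% over all genes), with a median of 0.23. Pdgfra, a defining fibroblast marker, had 11.56 ± 0.06 in VdR and 11.69 ± 0.14 in VR (SD, n = 4; adjusted p = 0.355, limma). Of 30 genes of the IGF, FGF and PDGF axes, 2 rose and 0 fell (6.67% called, beside 3.44% over all genes, median 0.15). Pdgfd, a ligand of the PDGF receptor beta, was at 8.25, 8.19, 7.62 and 7.88 in VdR, at 8.63, 9.02, 9.03 and 9.31 in VR and at 8.59 to 9.08 in R, again with VdR apart from both other groups. Fgf10, a mesenchymal ligand for epithelial cells, was low throughout, at 6.19 to 6.42 in VdR and 6.65 to 7.06 in VR. Their differences were 1.01 (adjusted p = 0.0126) and 0.57 (adjusted p = 0.0118, limma), kept without any 1 tumor. Igf1 had 0.73 (adjusted p = 0.111). In the Wnt pathway list, which does not hold Wnt7b and Lgr6 given below, 5.88% of 34 genes were called, beside 3.44% over all genes. The 1 that rose was Fzd1, a receptor (0.55, adjusted p = 0.0267, limma), and the 1 that fell was Sfrp2, a secreted modulator of Wnt. Sfrp2 was abundant, at 11.94, 12.37, 11.94 and 11.79 in VdR, 11.04, 11.53, 11.03 and 10.87 in VR and 10.14 to 10.40 in R, so both Vnn1 groups lay above R and VdR more so. It fell by 0.89 from VdR to VR (adjusted p = 0.0126, limma), kept without any 1 tumor. Of 36 genes of the TGF-beta and BMP pathway and 20 contractile genes of smooth muscle and myofibroblasts, 0 were called, with medians of 0.01 and 0.10. At an unadjusted p under 0.05, 3182 of all 16573 genes passed by limma and 2839 by the methods' t-test.

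**Figure D2:**
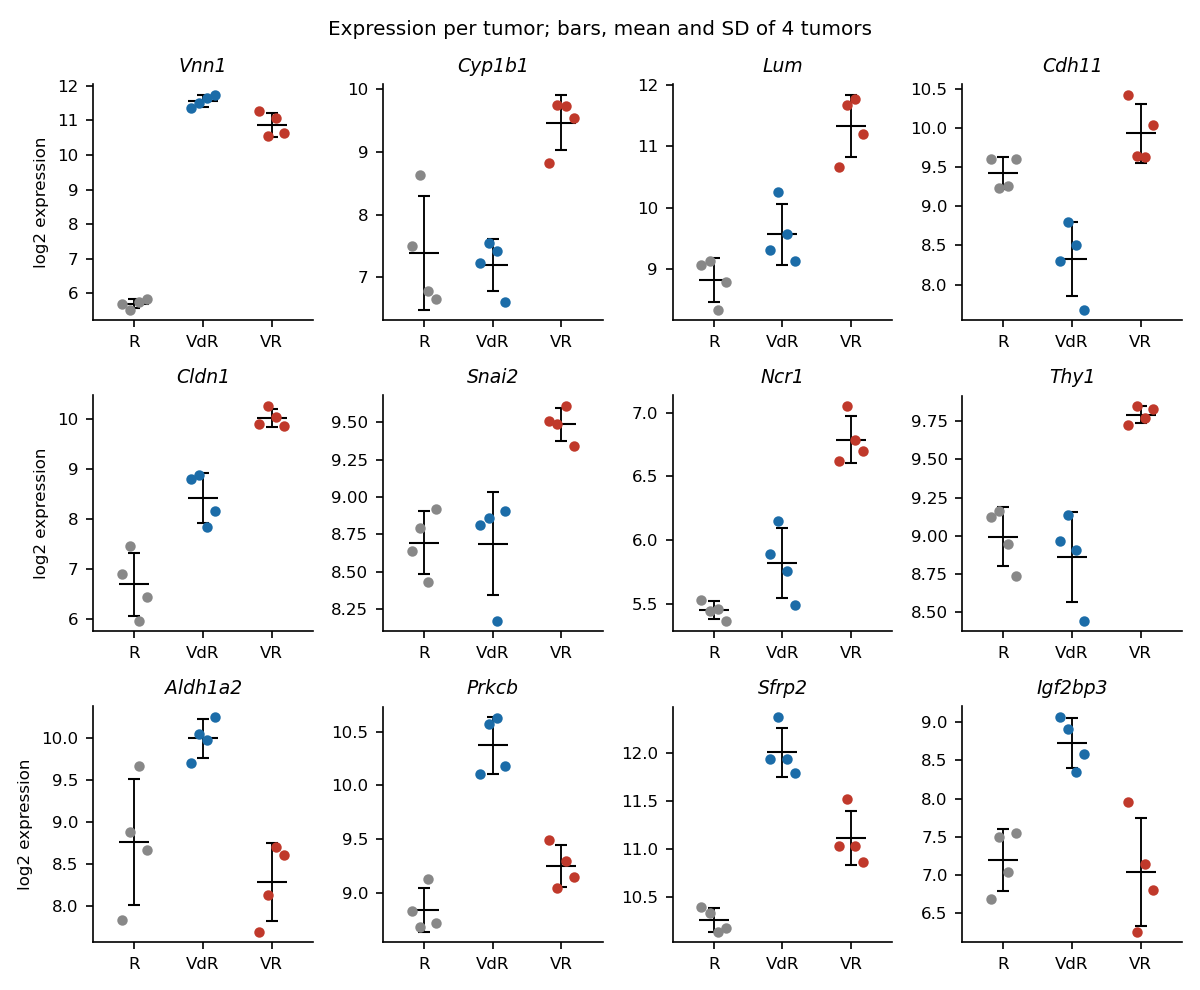
Log2 expression of 12 genes in each R, VdR and VR tumor (points), with the mean and SD of 4 tumors per group (bars). VR and VdR values do not overlap in any panel; R lies with VR for Cdh11 and Igf2bp3, with VdR for Cyp1b1, Snai2 and Thy1, and below both for Vnn1, Cldn1 and Sfrp2.

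Several of the larger falls kept their call when any tumor was left out. Prkcb, protein kinase C beta, had 10.11, 10.57, 10.63 and 10.18 in VdR, 9.49, 9.04, 9.30 and 9.15 in VR and 8.68 to 9.13 in R. It was 2.18-fold lower in VR (log2 difference -1.13 ± 0.14 SE, adjusted p = 0.00437, limma). Cst6, a cystatin that inhibits cathepsins, had 9.32, 9.51, 9.45 and 9.35 in VdR and 8.67, 8.08, 8.51 and 8.14 in VR, a fall by 1.06 (adjusted p = 0.00437). Both kept their call without any 1 tumor. Phlda2, an imprinted gene that restrains growth, fell by 1.33 (adjusted p = 0.0122), Gldc, the glycine decarboxylase of mitochondria, by 1.25 (0.0127), Greb1, an estrogen-responsive gene, by 1.20 (0.0118) and Cda, cytidine deaminase, by 0.92 (0.0118, all limma), with calls kept likewise. For these 4 genes the R mean lay with or above VdR. Cmbl, a hydrolase, also kept its call (fell by 0.98, adjusted p = 0.017). Calls that were lost without VR4, and for some of them without further tumors, were those of Igf2bp3, an mRNA-binding protein (-1.69, adjusted p = 0.0183), Lgr6, an R-spondin receptor (-1.33, 0.0228), Rasgrf1, an exchange factor for Ras (-1.33, 0.0141), Lepr, the leptin receptor (-1.12, 0.018), the ligand Wnt7b (-1.05, 0.0357) and Wfdc13 (-1.24, 0.0258). The kallikrein gene Klk8 was 2.00-fold lower, a call lost without VR4. Bves, a membrane protein of muscle, had 7.34, 7.71, 8.31 and 8.93 in VdR and 6.68, 6.29, 6.20 and 6.55 in VR (-1.64, adjusted p = 0.0406, limma). Of the 8 ways to leave out a tumor, only that without VdR1 kept its call. The mean level of 18 skeletal muscle genes was high in VdR2 (8.19), VdR4 (8.69) and VR2 (7.92) and between 6.36 and 6.46 in the other 5 tumors, and Bves was highest in VdR5, whose muscle level was 6.36. All 18 muscle genes had a negative difference (median -0.65) and 0 were called. The part of host muscle in any difference was not tested.

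The genes with the lowest adjusted p, up to 0.00437 by limma, were 12, and all of them but Prkcb and Cst6 fall outside the gene lists and the 20 largest changes and were named after their values were seen. Apart from Prkcb and Cst6, they changed less than 2-fold but with little spread. Slc25a43, a member of the mitochondrial carrier family, had 8.27, 8.33, 8.22 and 8.30 in VdR, 9.24, 8.99, 9.02 and 8.98 in VR and 8.31 to 8.66 in R, a rise of 0.77. Mgmt, which removes methyl groups from guanine in DNA, had 6.58 to 6.73 in VdR, 7.35 to 7.81 in VR and 6.67 to 6.98 in R, a rise of 0.91. Adgrl2, an adhesion receptor of the latrophilin family, rose by 0.83, Maml2, a coactivator of Notch, by 0.59 and Cyp2j9, a cytochrome P450, by 0.56. Ethe1, the persulfide dioxygenase that clears sulfide in mitochondria, went the other way. It had 9.05, 9.16, 9.19 and 9.25 in VdR, 8.68, 8.68, 8.55 and 8.63 in VR and 8.80 to 8.95 in R, a fall by 0.53 with R between the groups. Msx2, a homeobox factor of mesenchyme, fell by 0.55, Nufip1, an assembly factor of small nucleolar ribonucleoproteins on chromosome 14, by 0.56 and the adaptor Shc3 by 0.41. With Apex1, Cst6 and Prkcb, all 12 kept their call whichever VR or VdR tumor was left out.

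Other rises among the 20 largest were Gal3st3, a sulfotransferase (1.28), the tetraspanin Tspan18 (1.09), Ano1, a calcium-activated chloride channel (1.19), Vgll3, a cofactor of TEAD factors (1.23), the glutamate receptor subunit Gria4 (1.24), the peptidase Naalad2 (1.23) and Tnfsf10, the death ligand TRAIL (1.16). Gal3st3 and Tspan18 kept their call without any 1 tumor. Gal3st3 had 6.94 to 7.25 in VdR and 8.11 to 8.96 in VR, with R at 8.08 to 8.82, whereas Ano1 was highest in R, at 9.14 to 10.20, then VR (8.11 to 8.85) and then VdR (7.11 to 7.43). Calhm5, named after its values were seen (1.18, adjusted p = 0.0376), overlapped between groups in 1 tumor of each, since VR1 at 7.61 lay below VdR1 at 7.74. H2-Q4, a class I antigen-presenting gene, had 1.30 (adjusted p = 0.0255), but near-identical genes of this family can share probes and the value is uncertain. Dpp4 and Dpep1, surface peptidases named after their values were seen, rose by 0.94 (adjusted p = 0.0439) and 1.01 (adjusted p = 0.0395, limma).

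Immune genes rose in small numbers and at low levels. Of 8 natural killer cell genes tested, out of 13 listed, 3 were higher and 0 lower (37.5% called, beside 3.44% over all genes). Their median was 0.40, with mean levels of 6.30 to 6.53 in VdR, 6.61 to 6.95 in VR and 5.85 to 5.98 in R. Ncr1, the activating receptor NKp46 that defines these cells, had 5.90, 6.15, 5.76 and 5.50 in VdR and 6.62, 7.05, 6.79 and 6.70 in VR. It rose by 0.96 (1.95-fold, adjusted p = 0.00465, limma) and kept its call without any 1 tumor. Klrd1 and Klrk1, lectin-like receptors of the same cells, rose by 0.61 (adjusted p = 0.0345) and 0.35 (adjusted p = 0.0342), and Il2rb, their shared receptor chain for IL-2 and IL-15, had 0.60 (adjusted p = 0.0568, not called). Klrk1 reached the level needed for testing, above 5.38 in 4 or more arrays, only through the VR tumors. Its VdR values were 5.10 to 5.28, so its call and the 37.5% are partly selected by its level in VR. The other members were not called either, and Prf1, the pore-forming perforin, at -0.03 (adjusted p = 0.941) and Eomes, a transcription factor of these cells, at -0.68 (adjusted p = 0.217) had negative differences. Il15, the cytokine on which natural killer cells depend, stood at 7.22, 7.39, 7.06 and 7.16 in VdR, at 7.90, 8.12, 7.95 and 8.07 in VR and at 6.46 to 6.97 in R. The difference of 0.80 (adjusted p = 0.00558, limma) was kept without any 1 tumor. Il15 and the following genes were named after their values were seen. Xcl1, a chemokine made by natural killer cells, rose by 0.87 (adjusted p = 0.0222), Klrb1f by 0.98 (0.0298), Cd96 by 0.47 (0.0303), Ctsw by 0.46 (0.0264) and Btla, an inhibitory receptor of lymphocytes, by 0.59 (0.0126, all limma). Of these only Btla kept its call without any 1 tumor. Of 9 genes with a Klr symbol, a group also chosen after values were seen, 5 rose and 0 fell. Over all genes tested, 1.77% were higher. Klrd1, Klrk1 and Klrb1f are among the 5, so this count is not a separate result.

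Of 12 dendritic cell genes, 3 were higher and 0 lower (25% called, beside 3.44% over all genes, median 0.38). They were Xcr1, the receptor for Xcl1 on cross-presenting cells (0.58, adjusted p = 0.0228), Flt3, the receptor that drives dendritic cell development (0.57, 0.0344), and Ccr7, which guides them to lymph nodes (0.93, adjusted p at the threshold, 0.05 when rounded). Ccl22, a chemokine of mature dendritic cells and macrophages, had 6.57, 5.70, 5.89 and 5.89 in VdR and 6.58, 8.48, 7.86 and 6.74 in VR, so the groups were barely separate at VR1 and VdR1 (1.41, adjusted p = 0.0483, limma). These 4 calls were lost without either VR2 or VR4. With Ccl22 and Ccr7, 2 of 33 chemokines and receptors rose, 6.06% beside 3.44% over all genes. Of 20 macrophage genes, 0 were called and the median was -0.16, with mean levels of 9.57 to 9.80 in VdR, 9.48 to 9.76 in VR and 8.57 to 8.91 in R. The defining markers Adgre1, Csf1r and Cd68 were high in both groups, with differences of -0.10 (95% interval -0.33 to 0.14), -0.15 (-0.36 to 0.05) and -0.34 (-0.70 to 0.03). With the macrophage level of each tumor as a covariate, 583 genes were called, of which 408 were among the 570. Clec12a (0.96, adjusted p = 0.0374, limma) was the 1 monocyte gene of 7 that rose, with VR5 at 7.87 below VdR2 at 7.90, and Ccr2, the defining monocyte receptor, had 0.93 (adjusted p = 0.196). Single genes were called higher in the lists of B cells (Cd79b, 0.40, of 3), pericytes (Rgs5, 0.55, of 10), erythroid cells (Alas2, 0.55, of 3) and MHC class II presentation (H2-Ea, 0.62, of 10). H2-Ea is listed here by its array symbol. In C57BL/6 mice, the background of J2A cells, this gene is not functional, and the strain of the nude hosts is not stated. Alas2, the heme synthesis enzyme of red cells, kept its call without any 1 tumor, at 5.96 to 6.26 in VdR and 6.55 to 6.86 in VR. Of 19 endothelial genes, 2 rose (10.5% called, beside 3.44% over all genes). They were the angiopoietin receptor Tek (0.77, adjusted p = 0.0188) and the TGF-beta co-receptor Eng (0.60, adjusted p = 0.0236, limma). The defining markers Pecam1 and Cdh5 had 0.53 each (adjusted p = 0.126 and 0.132, limma). The calls of Tek and Eng were lost without either VR2 or VR4.

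Interferon-stimulated genes leaned the same way without a call. Of 32, 31 had a positive difference, with a median of 0.54, and 0 passed. Their mean level was 8.21, 9.91, 8.70 and 7.75 in VR and 8.68, 7.67, 8.12 and 7.98 in VdR. VR2 lay above all VdR tumors by over 1 unit, VR4 barely, VR5 lay below 3 of them, and the groups overlapped. Ifit3, a typical member, had 8.66 to 11.88 in VR and 8.22 to 10.32 in VdR (adjusted p = 0.422), and Irf7, the factor that amplifies the response, 6.96 to 11.13 and 6.92 to 9.33 (adjusted p = 0.582, limma). Tlr3, the receptor for double-stranded RNA, was the exception among related genes. It had 7.95, 8.14, 7.91 and 7.82 in VdR and 8.53, 8.98, 8.55 and 8.62 in VR (0.71, adjusted p = 0.0158, limma) and kept its call without any 1 tumor. Of 34 inflammatory cytokines and receptors, it was the 1 that rose, and Ptges, the prostaglandin E synthase, the 1 that fell (-0.44, adjusted p = 0.0457, limma). The share called in that list was 5.88%, beside 3.44% over all genes. Of 16 class I presentation genes, 1 was called (H2-Q4, 6.25%), with a median of 0.22.

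**Figure D3:**
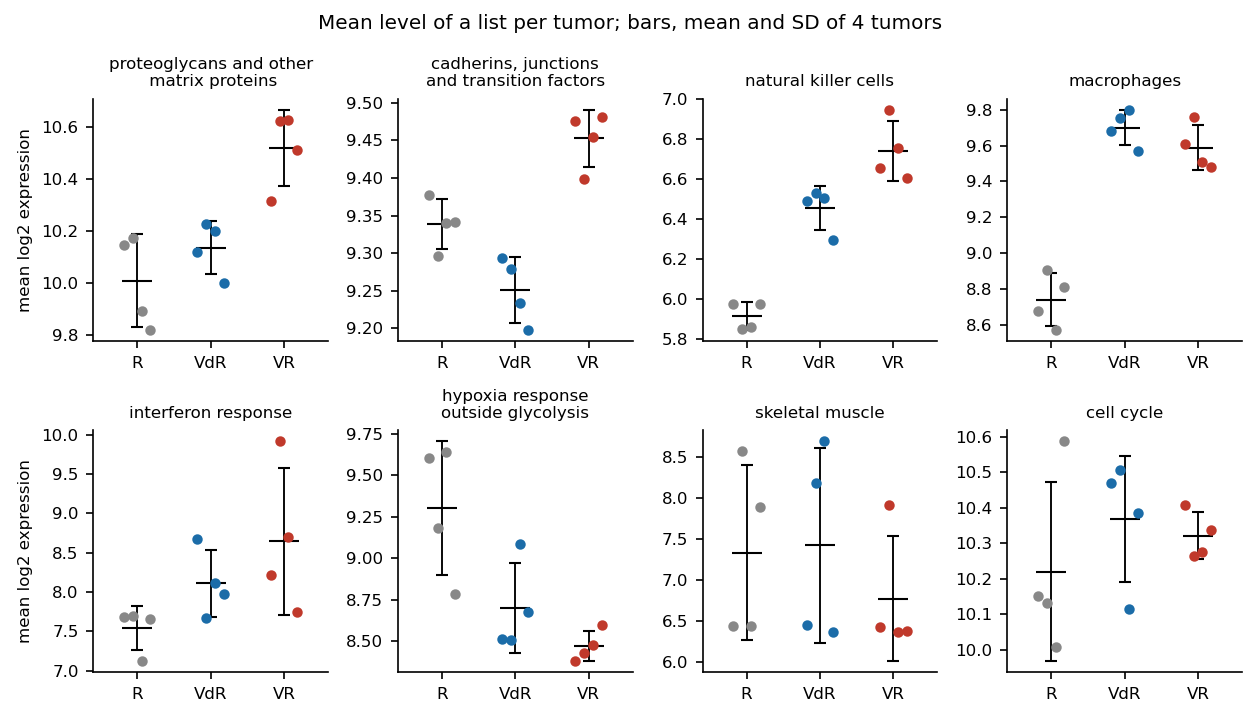
Mean log2 expression of 8 gene lists in each R, VdR and VR tumor (points), with the mean and SD of 4 tumors per group (bars). VR and VdR do not overlap for matrix proteins, adhesion genes and natural killer cells; they overlap for macrophages, interferon response, hypoxia response, skeletal muscle and cell cycle, with VR2 at 9.91 for interferon and VdR4 at 9.09 for hypoxia.

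Metabolic genes are the field in which the products of pantetheinase are known to act. Of 23 genes of coenzyme A synthesis and breakdown, 1 was higher and 2 were lower, 13% beside 3.44% over all genes, with a median of -0.02. The pantothenate kinases Pank1, Pank2, Pank3 and Pank4 and the following enzymes Ppcs, Ppcdc and Coasy differed by -0.10 (Pank4) to 0.12 (Ppcdc) and none was called. The called members were Nudt7 (0.28, adjusted p = 0.0447) and Nudt8 (-0.27, adjusted p = 0.0312), hydrolases that split coenzyme A, and Ado, the dioxygenase that oxidises cysteamine to hypotaurine. Ado had 9.66, 9.52, 9.54 and 9.48 in VdR, 9.35, 9.20, 9.29 and 9.38 in VR and 9.35 to 9.44 in R. It was 1.18-fold lower in VR than in VdR (log2 difference -0.24 ± 0.06 SE, adjusted p = 0.0357, limma). The 3 calls did not last when tumors were left out, Nudt7 losing it in all 8 cases and Nudt8 and Ado in 7. Of 23 fatty acid oxidation genes, 0 were called (median 0.07), and Cpt1a, the gate of fatty acid entry into mitochondria, had 10.78 ± 0.33 in VdR and 11.18 ± 0.17 in VR (SD, n = 4; adjusted p = 0.272, limma). Lists of 12 pyruvate dehydrogenase genes, 19 tricarboxylic acid cycle genes and 28 genes of lipid uptake, storage and synthesis had 0 calls each. Among 48 genes of the respiratory chain, 1 was called, Cox8a (-0.22, adjusted p = 0.0312).

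Of 19 glycolysis genes, 3 were lower and 0 higher (15.8% called, beside 3.44% over all genes, median -0.21). A negative difference was found in 15 of the 19, beside 56.4% of all genes tested. The mean level of the list was 9.82 to 10.20 in VdR, 9.67 to 9.75 in VR and 10.08 to 10.63 in R. The called genes were Tpi1, triose phosphate isomerase (-0.38, adjusted p = 0.0361), Pfkm, a phosphofructokinase (-0.51, adjusted p = 0.0419), and Slc16a1, the lactate transporter (-0.62, adjusted p = 0.0473, limma). Each lost its call when any of VR1, VR2, VR4, VR5 or VdR4 was left out. Of 23 other hypoxia genes, 0 were called, and the median was -0.20. One tumor carried much of it. Car9, carbonic anhydrase 9, had 6.24, 6.18, 7.84 and 6.72 in VdR and 6.12, 6.13, 6.17 and 6.14 in VR, Bnip3, a mitophagy receptor, had 8.84, 8.91, 10.48 and 9.40 against 8.74, 8.59, 8.62 and 9.09, and Slc2a1, the glucose transporter, 10.96, 10.85, 12.02 and 11.16 against 10.67, 10.67, 10.66 and 10.96. In each case VdR4 was by far the highest of the 8 tumors. R tumors were higher and more spread, Car9 for example at 6.73 to 9.48. Adjusted p was 0.581 for Car9, 0.385 for Bnip3, 0.351 for Slc2a1, 0.221 for Pdk1, 0.286 for Hk2, 0.822 for Adm and 0.268 for Vegfa (limma). Epas1, the oxygen-sensing factor HIF-2 alpha that is abundant in endothelium, was 1 of 7 such factors called, and it rose (9.11 to 9.79 in VdR, 9.99 to 10.76 in VR, difference 0.78, adjusted p = 0.0312).

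Of 20 cholesterol synthesis and uptake genes, 2 were lower and 0 higher (10% called, beside 3.44% over all genes, median -0.15). They were Fdft1, squalene synthase (-0.54, adjusted p = 0.0185), and Tm7sf2, a sterol reductase (-0.35, adjusted p = 0.0376, limma), whose calls were lost without either VR2 or VR4. Of 28 genes of ATF4 response and amino acid supply, 4 were called (14.3%, beside 3.44% over all genes). Lower were 3, Phgdh of serine synthesis (-0.41), the amino acid transporter Slc38a2 (-0.36) and Cars, a tRNA synthetase (-0.25). The 1 that rose was Ddr2 (0.23), which is a collagen receptor. Of 31 antioxidant, glutathione and NRF2 genes, the secreted superoxide dismutase Sod3 rose (0.66, adjusted p = 0.0264) and Gpx7, a peroxidase of the endoplasmic reticulum, fell by 0.45 (adjusted p = 0.0252, limma). The share called in that list was 6.45%, beside 3.44% over all genes. Of 32 cell cycle genes 1 was called, Ube2c (-0.30), of 27 Ras-ERK feedback genes 1, Fosl1 (-0.35), and of 22 folding and stress genes of the endoplasmic reticulum 1, Sdf2l1 (-0.25). Of 17 p53 targets 0 were called, as were 0 of 16 complement genes.

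**Figure D4:**
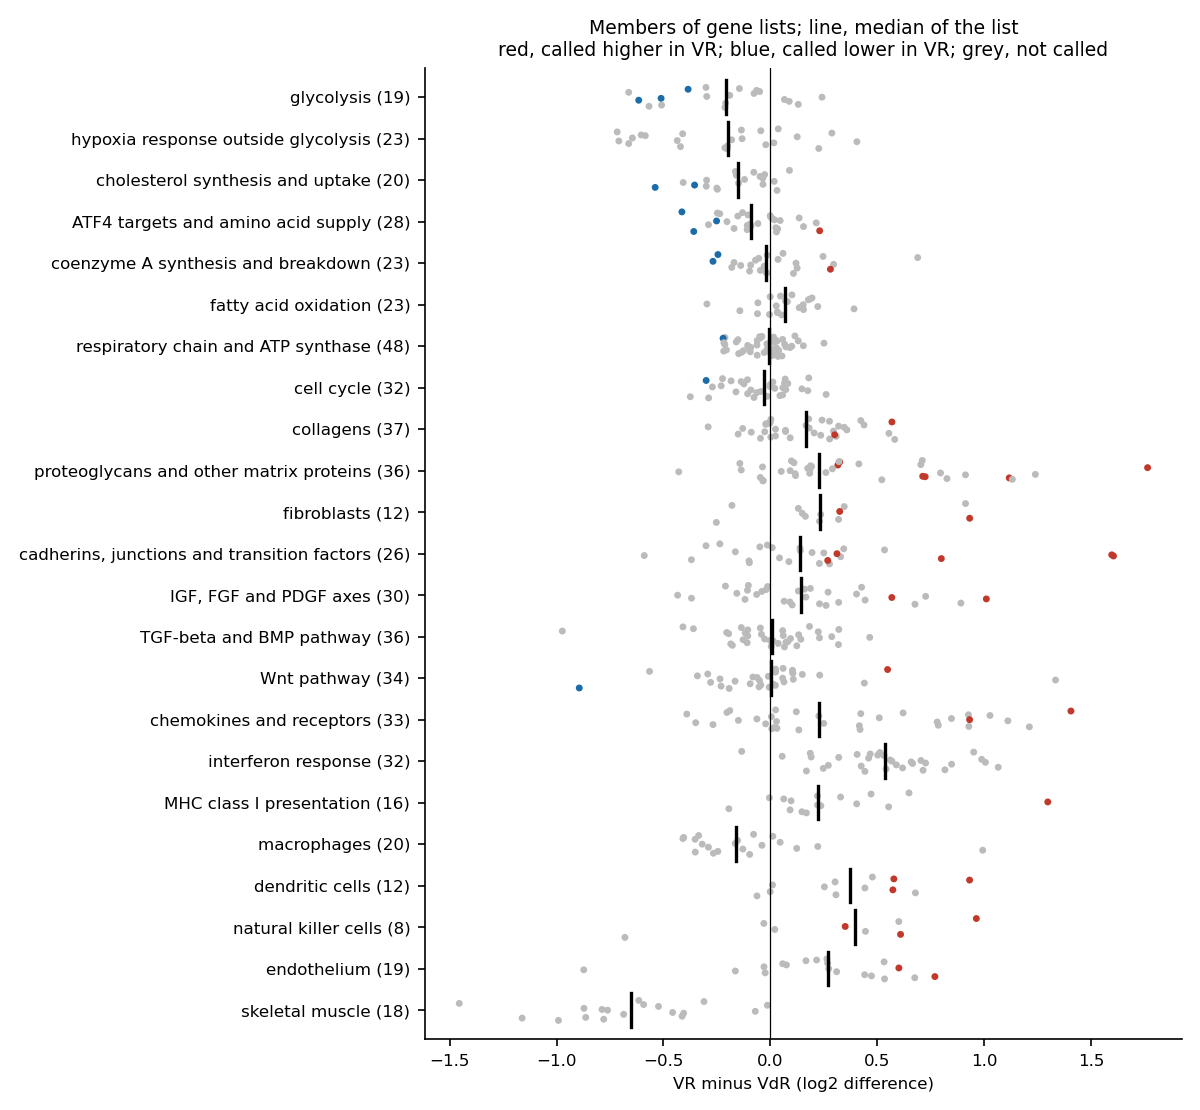
Difference VR minus VdR (log2, horizontal axis) of each tested member of 23 gene lists (rows, number of tested members in brackets). Red points were called higher in VR, blue points lower, grey points were not called, and the line is the median of the list, from -0.65 for skeletal muscle to 0.54 for interferon response, neither of which has a called member.

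Some small noncoding RNA genes fell. Of 49 small nucleolar RNAs, which guide the processing and modification of ribosomal RNA, 0 were higher and 8 were lower (median -0.17). Over all genes tested, 1.67% were lower. This family, the Y RNAs and the ribosomal protein genes were chosen as groups after values were seen. A positive difference was found in 7 of the 49, beside 43.6% of all genes tested. Snord118, the U8 RNA needed to mature the large ribosomal subunit's RNA, had 9.13, 8.41, 9.56 and 7.63 in VdR, 6.46, 6.65, 6.84 and 7.41 in VR and 6.92 to 7.85 in R (-1.84, adjusted p = 0.0234), with VdR5 close to VR5. The call of Snord118 was lost without VR2, VR4, VdR1 or VdR4 (highest adjusted p 0.0665). Snora31 had 8.72, 8.31, 8.56 and 9.24 in VdR and 7.17, 7.23, 7.07 and 6.91 in VR (-1.61, adjusted p = 0.00999, limma) and kept its call without any 1 tumor. Snora3 (-0.97), Snora21 (-0.86) and Snora16a (-0.92) were also lower, the last 2 named after their values were seen, and so was Rny1, a Y RNA (-1.63, adjusted p = 0.0312). Ribosomal protein genes did not follow, with 0 higher and 1 lower of 55 and a median of -0.01. The RNA was amplified before hybridisation, and the part of recovery of short RNA in these differences was not tested. One small RNA rose, Mir568, with VdR1 at 8.16, VdR4 at 7.23, VdR5 at 8.23, VdR2 highest of these 4, and 9.07, 8.92, 9.07 and 8.93 in VR (1.99-fold, adjusted p = 0.0312; lost without VR1, VR2, VR4, VR5, VdR1 or VdR5, highest adjusted p 0.0868, limma). It is shown because it was the only microRNA gene called, chosen after its value was seen. Per RefSeq on GRCm38.p6 the mature RNA lies on the plus strand at chr16:43640665-43640684 inside Tigit, a receptor gene whose own difference was 0.15 (adjusted p = 0.26). Capitals mark the seed, bases 2 to 8.
mmu-miR-568: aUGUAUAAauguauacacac
The value can come from a longer transcript, so it is not that of the mature RNA. Tigit was named by overlap of coordinates, and neither its strand nor the positions of the probes were examined.

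The called genes were not spread evenly over the chromosomes. A chromosome was given by RefSeq (GRCm38.p6) for 16518 of the tested genes. On chromosome 14, 46 genes were lower and 3 higher in VR (8.36% called, beside 3.44% over all), on chromosome 15, 34 and 1 (5.26%), and on chromosome 19, 29 and 5 (6.05%), whereas on chromosome 18, 1 was lower and 22 were higher (5.64%). The median difference over all genes of the chromosome was -0.08 on 14 and on 15, -0.07 on 19 and 0.07 on 18, beside -0.02 over all genes. In 4 of 20 chromosomes, these ones, the 4 VR tumor medians did not overlap the 4 VdR medians. On chromosome 14, the median was negative in all 10 stretches of equal gene number along its length, from -0.12 to -0.07, and in each of 5 groups by gene length. On chromosome 15 all 10 stretches were negative too, on 18 all 10 were positive and on 19, 9 of 10 were negative. This also occurred elsewhere, with 10 of 10 negative on chromosome 8, 9 of 10 on 2 and on 7, and 9 of 10 positive on X, where the tumor medians of the groups overlapped. Apex1, the base excision repair endonuclease on chromosome 14, was among the 3 genes with the lowest adjusted p (0.00364, limma), with 9.86, 9.84, 9.84 and 9.64 in VdR, 9.05, 9.18, 9.08 and 9.12 in VR and 9.63 to 9.91 in R. It fell by 0.69 and kept its call without any 1 tumor. The genes of these chromosomes given next, Prmt5 and the protocadherins, were named after their values were seen. Prmt5, an arginine methyltransferase (-0.43, adjusted p = 0.0303), Fdft1 and Snora31 lie on the same chromosome. On chromosome 18 lie Zeb1 and the beta protocadherins, neuronal-type adhesion proteins, of which 6 of 19 were higher and 18 of 19 had a positive difference (median 0.40), led by Pcdhb17 (0.72, adjusted p = 0.0222) and Pcdhb21 (0.63, adjusted p = 0.0285). Over all genes tested, 1.77% were higher and 43.6% had a positive difference. Protocadherin beta genes are alike in sequence, and their values can share probes. When each array was centred on the median of every chromosome, 402 genes were called, 241 higher and 161 lower, of which 366 were among the 570. Chromosome 14 then had 13 lower and 6 higher. DNA copy number was not measured in these tumors, and its part was not tested.

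Gene length went with the direction of the difference. With genes in 5 equal groups by genomic span, in the longest group 127 were higher and 27 lower in VR (median 0.04), and in the shortest group 31 were higher and 84 lower (median -0.04). The tumor medians of VR and VdR overlapped in both groups of genes, with VR2 below VdR2 in the longest and VdR2 below VR1, VR4 and VR5 in the shortest. With the trend on gene length removed from each array, 465 genes were called, 266 higher and 199 lower, of which 416 were among the 570. RNA integrity values were not among the data used here, and the part of RNA quality was not tested.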

How the data were processed

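Tumor RNA was amplified (NuGEN Ovation Pico) and hybridised to Affymetrix mouse gene 1.0 ST arrays, 1 per tumor. The deposited values are log2 intensities that the authors obtained by RMA in oligo, for which no version is given in the sources used here. They cover 35556 probesets, of which 21789 carry 1 gene symbol in GEO's platform annotation, 1621 several and 12146 none; the last 2 kinds were not used. Each of 19938 genes was taken from its probeset with the highest mean, since arrays measure a gene by several probesets. A gene was tested if 4 or more of the 12 arrays had it above 5.38, the lower quartile of the table (16573 genes; 3365 were left out). R 4.3.3 and limma 3.58.1 (lmFit, eBayes) fitted the 3 groups over 12 arrays, so that R contributes to the spread; VR minus VdR was the contrast, with Benjamini-Hochberg adjustment over all tested genes and a threshold of 0.05. All tests were two-sided, and intervals are 95%. Vnn1 was also tested by exact permutation. A list's level is the mean log2 value of its tested members. Array data give no read depth; 4 tumors a group limit the precision, and differences are compressed near background.

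The comparison and the 51 gene lists were chosen with earlier results of these data known. The rule for named genes was Vnn1 and Vnn3, the 20 largest called and non-overlapping changes in each direction, up to 4 called members of a list, genes the study names and defining cell markers. The text gives part of them. Genes outside the rule are stated as such or are Nqo1, Rarb, Stra6, Ogn, Dpt, Ifit3, Irf7, Il2rb, Igf1, Cdh2, Vegfa and Prrx1, also chosen with values seen, and Tigit, which holds Mir568. Alternatives were the filter, the probeset rule, scaling (cyclic loess, median centring), moderation, array weights, the replicate number as a block, the 8 arrays alone, the methods' t-test (stated for qRT-PCR), a minimum change, a macrophage covariate and leaving out each tumor. Centring by chromosome, removing a trend with gene length and leaving out VR2 with VdR4 were added after the data were seen. Replicate numbers were taken as pairs only if each same-numbered pair of deviations correlated above 0.1; they correlated at 0.134, 0.227, 0.0456 and 0.148, so the block stayed an alternative. No 2 arrays were identical. Coordinates and sequences are from RefSeq on GRCm38.p6. On simulated data over the 16573 genes, the fit recovered 45 of 50 genes changed 1.5-fold and 50 of 50 changed 2-fold, with 10 false among 204 calls. The simulated noise was independent between genes, while these tumors differ in whole groups of genes. The simulation checks the code and does not give the rates of missed or false calls in these data.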

Additional observations from a re-analysis of the deposited data

Results flagged for a closer look

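In 21 of 416 groups of 4 tumors tested (157 genes and 51 list levels, in VR and in VdR), 5.05%, the gap of 1 tumor to its nearest neighbour took up most of the group's range, and chance gives about 1 in 20. Values are log2 expression. VdR1 stood apart for Vnn3 (5.521, highest), Fgf10 (6.423), Ctsw (6.697) and Ifit3 (10.32). VdR4 stood apart for Tpi1 (12.42, highest), Snai2 (8.173, lowest) and the level of the genes the study names (9.6). VdR5 stood apart for Ddr2 (11.5), Apex1 (9.643, lowest), Il2rb (6.706) and the complement level (8.744). VdR2 stood apart for the level of pyruvate dehydrogenase and its kinases (8.914).

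Among VR tumors, VR1 stood apart for Ctsk (8.327, lowest), Slc25a43 (9.236, highest) and the keratinocyte level (6.579). VR2 stood apart for the skeletal muscle level (7.92, highest). VR5 stood apart for Lepr (5.892), Slc2a1 (10.96, highest), Ogn (9.145, lowest), the cholesterol level (9.267) and the mast cell level (6.951). Of these genes, Ctsk, Lepr, Tpi1, Ddr2, Snai2, Fgf10, Apex1, Ctsw and Slc25a43 were called between VR and VdR.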

How the results depend on the processing

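None of the 117 named called genes changed sign under any alternative, while many calls rested on few tumors. Over the alternatives that leave out 1 tumor, the genes called ranged from 86 (without VR4) to 748 (without R5), those higher from 32 to 371, those lower from 54 to 377, and those changed at least 1.5-fold from 34 (without VR4) to 177 (without VR1). Without VR2 and VdR4 together there were 32 (15 higher, 17 lower, 18 at least 1.5-fold). Array weights gave 884 (455 higher, 429 lower). The methods' t-test gave 30 after adjustment (12 higher, 18 lower, 7 at least 1.5-fold) and 2839 at an unadjusted p under 0.05. A test against a minimum change of 1.5-fold in limma gave 0 in all, 0 higher and 0 lower, with 68 at an unadjusted p under 0.05. Centring by chromosome left 161 lower. The cause of these changes was not tested beyond the smaller number of tumors. With a replicate block 621 genes were called, 471 of them among the 570, and of the 117 named calls 108 were kept and Ccl22, Cilp, Epas1, Ddr2, Cars, Sdf2l1, Ccr7, Dcn and Prrx1 were not (adjusted p 0.0511 to 0.0752, limma). All same-numbered correlations were above 0, and not every VR tumor correlated best with the VdR tumor of its number (VR4 with VdR1, 0.15). The other settings gave 465 to 730 genes, within 1.5 times the 570. Among them, the fit on only the 8 arrays compared gave 478, of which 375 were among the 570. It kept 88 of the 117 named calls and lost 29. The methods' t-test kept 7 of the 117. With 1 tumor left out, Vnn1 ranged from -0.8147 (without VR1) to -0.5748 (without VR2), and it was -0.5424 without VR2 and VdR4 together. Differences near 0 changed sign for Pank1 (macrophage covariate -0.02172; from -0.04119 to 0.12 over tumors left out), Pank2 (chromosome centring 0.01432; from -0.05727 to 0.01098), Ppcs (cyclic loess 0.003154, length trend 0.03367, without VR2 and VdR4 0.003589; from -0.02819 to 0.001024), Coasy (without VR2 and VdR4 -0.004663), Prf1 (array weights 0.06346, macrophage covariate 0.02509, length trend 0.0169; from -0.1516 to 0.1382) and Adgre1 (macrophage covariate 0.03845). Differences of low-expressed genes are limited by their closeness to background.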
